A study of Mus musculus with 4 samples.

Results

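The genes described here are 9 cytokine genes of lung group 2 innate lymphoid cells (ILC2s): Il4, Il5, Il9, Il13, Csf2, Il3, Il2, Il6 and Il10. They are 9 of the 55401 gene models in the deposited tables, each found once by its symbol. They were chosen by name as cytokines of ILC2s, and with their levels in these libraries already known, Il9 standing out as the one that differs most between the groups. The difference between the groups is therefore given for them as a description, with no test. Purified lung ILC2s of C57BL/6 mice were held for 6 h with IL-33, the alarmin that activates them. A second group received IL-33 with added angiotensin II (Ang II), the vasoactive peptide of the renin-angiotensin system. Both groups hold 2 libraries, each from 500 cells, and both carry IL-33, so that neither shows unstimulated cells. Doses, the age and number of mice and whether the libraries of a group came from separate cultures are not given in the labels used here.

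ILC2s lack antigen receptors and answer alarmins such as IL-33 through the receptor ST2. They then transcribe a small set of cytokine genes that type 2 helper T cells also use. In the lung IL-5 feeds eosinophils, IL-13 drives mucus and airway reactivity, IL-4 acts on B cells and macrophages, and IL-9 supports ILC2s themselves and mast cells. Il4, Il13 and Il5 lie together in the type 2 cytokine cluster on mouse chromosome 11, and Il3 and Csf2 lie farther along the same chromosome.

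Levels are FPKM, fragment counts scaled to transcript length and library size, so that each value is relative to the rest of its library. Comparisons between libraries rest on that scaling. The FPKM of all gene models summed to 430980 and 431014 under IL-33 alone and to 426140 and 394808 once Ang II was added. The depth of the libraries is not given. Across the 9215 genes with a mean FPKM of 1 or more, the median gap between the 2 IL-33 libraries was 0.05 on the log2(FPKM + 1) scale, and 1.05% of genes lay more than 2-fold apart. Between the 2 Ang II libraries the median gap was 1.22 and 55% of genes lay more than 2-fold apart. Of these genes, 791 were listed at 0 in one Ang II library and at 10 FPKM or more in the other, against 1 in the IL-33 pair. From the detection of low genes the IL-33 libraries were estimated to hold 12100000 fragments each. This estimate assumes that low genes differ between these 2 libraries by counting alone. At that depth their spread was 1.17 times counting noise, which is slightly more than counting alone gives. A ratio near 1 is thus partly built in. The Ang II spread was 13.7 times the noise at the same depth, which was not estimated from the Ang II pair. Whether the IL-33 libraries are 1 library sequenced again cannot be told from the ratio of 1.17. The plan averaged them only where their spread was below counting noise, as earlier results of these data showed, and otherwise set 2 against 2. The 1.17 found here did not meet that condition. In the test across genes the mean of the IL-33 libraries was still counted as 1 sample (n = 1 against n = 2). The fit of 2 against 2 is given below. Of 15 ILC2 markers, 13 had a mean FPKM of 1 or more, and the list summed to 3538 to 3568 FPKM under IL-33 alone and 3705 to 3749 FPKM once Ang II was added. Without Areg, which is also an effector gene described here, the same list summed to 3531 and 3560 FPKM against 3488 and 3405 FPKM. Thy1 stayed below 1 FPKM in every library and Ptgdr2, which encodes the prostaglandin receptor CRTH2, was listed at 0.

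Of the 9 cytokine genes, Il9 lay higher in both Ang II libraries than in both IL-33 libraries, and Il13 and Il2 lay lower in both. Il4, Il6 and Csf2 overlapped between the groups, and Il5, Il3 and Il10 were listed at 0 in all 4 libraries. Over the 9215 genes tested, 24.4% stood above both IL-33 libraries in each Ang II library and 33.5% below, and nothing is read from the counts of the 9 genes, which were chosen with this contrast known. Il9, Il4, Il13, Csf2, Il2 and Il6 passed the minimum of 1 FPKM, and the 3 genes at 0 did not.

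**Figure D1:**
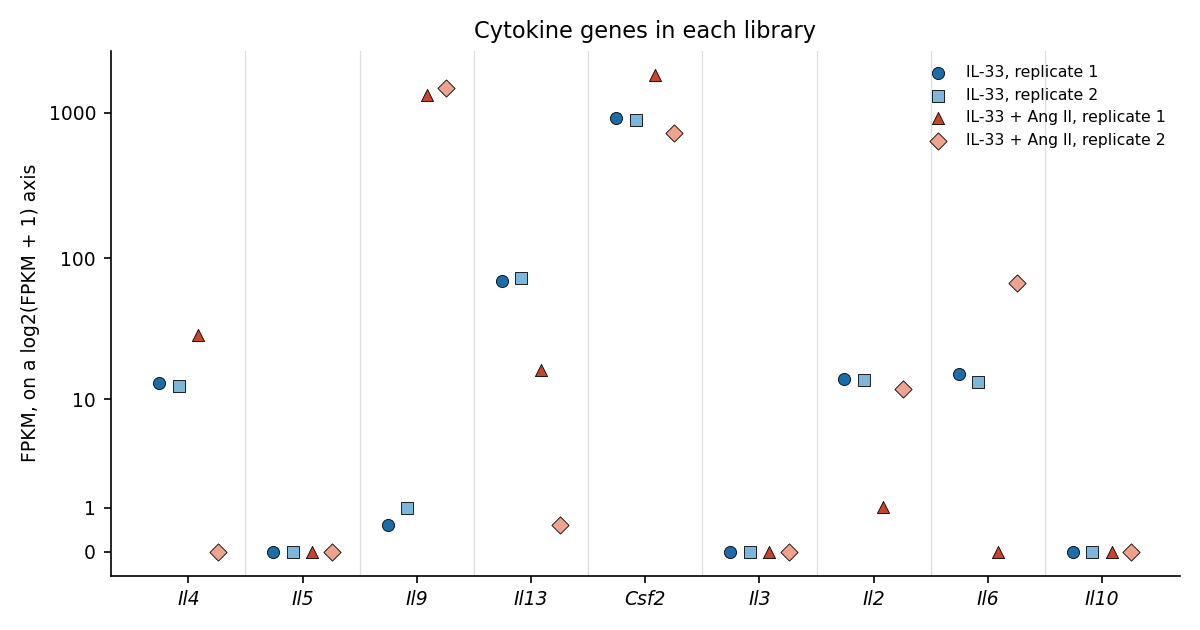
FPKM of the 9 cytokine genes in each library, on a log2(FPKM + 1) axis; each point is 1 library. The 2 IL-33 points lie close together, with the widest gap for Il9 (0.52 and 1.00 FPKM, 0.40 on this axis). The Ang II points of Il9 lie at 1310 and 1483 FPKM, and those of Il4, Il13, Il2 and Il6 lie far apart.

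Il9 (ENSMUSG00000021538, minus strand of chr13:56479277-56482246 in mm10) was listed at 0.52 and 1.00 FPKM under IL-33 alone and at 1310 and 1483 FPKM once Ang II was added. Both Ang II libraries were high and neither IL-33 library came near them. The mean difference was 9.64 on the log2(FPKM + 1) scale, and the 4 pairings of an Ang II with an IL-33 library gave 9.36 to 9.93. By FPKM, Il9 ranked 32 and 22 among all gene models in the Ang II libraries and 7722 and 7220 in the IL-33 libraries. The Ang II libraries differed by 1.13 times for Il9, and 83.6% of the genes tested had a larger gap between these libraries. Only Il9 and Gal, which encodes the neuropeptide galanin, stood at or below 1 FPKM in both IL-33 libraries and at or above 500 FPKM in both Ang II libraries. The reverse pattern, with the groups exchanged, occurred in 0 genes. Il9 was chosen with its levels known and its second IL-33 value lies at the lower limit, so nothing is read from these counts.

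Il13 (ENSMUSG00000020383, minus strand of chr11:53631324-53634702) stood at 70.1 and 73.7 FPKM under IL-33 alone and at 16.3 and 0.53 FPKM once Ang II was added. All Ang II values were below the IL-33 values, but the Ang II libraries lay 30.8-fold apart. The mean log2 difference was -3.82, and single pairings ran from -5.61 to -2.03. Il4 (ENSMUSG00000000869, minus strand of chr11:53602982-53618669) stood at 13.1 and 12.6 FPKM under IL-33 alone, at 29.4 FPKM in the first Ang II library and at a listed 0 in the second. Its groups overlapped, with the IL-33 values between the Ang II values. Within the first Ang II library Il4 exceeded Il13 by 1.8 times in FPKM, whereas with IL-33 Il13 exceeded Il4 by 5.34 and 5.84 times. Il5 (ENSMUSG00000036117, plus strand of chr11:53720794-53725106) was listed at 0 in all 4 libraries, and so was Gm12214, an antisense gene model that shares 417 exonic bases with Il5. A listed 0 in files of this kind can be a failed estimate, so that absence of Il5 transcripts cannot be read from it.

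The upstream sequences of 4 genes are shown because they stand for the 3 patterns in the data: Il9, high in both Ang II libraries; Il13, low in both; and Il4 and Il6, each listed at 0 in a different Ang II library. Each is the 250 bases before the RefSeq start on GRCm38.p6 (mm10), 5′ to 3′ along the gene's strand. Capitals mark matches, on either strand, to 4 motifs of factors that act on cytokine genes. Sites of the GATA family were searched as AGATAA or else as TGATAA. The core of NFAT sites was searched as GGAAA. For AP-1 the letters were TGANTCA, with N any base, and for STAT factors they were TTCNNNGAA. In these windows 0 matches overlapped one another. RefSeq windows were found for 8 of the 9 genes, all except Il10.
Il9, chr13:56482258-56482507, minus strand: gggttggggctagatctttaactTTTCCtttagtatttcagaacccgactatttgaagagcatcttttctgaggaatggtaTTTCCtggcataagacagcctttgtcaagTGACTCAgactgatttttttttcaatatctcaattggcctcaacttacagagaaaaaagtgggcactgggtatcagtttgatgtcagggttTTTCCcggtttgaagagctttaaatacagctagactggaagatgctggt
Il13, chr11:53634703-53634952, minus strand: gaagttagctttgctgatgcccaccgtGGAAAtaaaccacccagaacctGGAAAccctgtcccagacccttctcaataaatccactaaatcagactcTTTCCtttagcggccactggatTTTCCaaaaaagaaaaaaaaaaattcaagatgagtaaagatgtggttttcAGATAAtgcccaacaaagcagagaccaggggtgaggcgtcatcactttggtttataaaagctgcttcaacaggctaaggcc
Il4, chr11:53618666-53618915, minus strand: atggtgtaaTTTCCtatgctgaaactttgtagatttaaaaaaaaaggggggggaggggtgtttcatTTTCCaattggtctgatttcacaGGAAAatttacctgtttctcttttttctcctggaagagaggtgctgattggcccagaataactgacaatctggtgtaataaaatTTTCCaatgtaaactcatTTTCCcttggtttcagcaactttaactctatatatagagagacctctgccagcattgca
Il6, chr5:30012864-30013113, plus strand: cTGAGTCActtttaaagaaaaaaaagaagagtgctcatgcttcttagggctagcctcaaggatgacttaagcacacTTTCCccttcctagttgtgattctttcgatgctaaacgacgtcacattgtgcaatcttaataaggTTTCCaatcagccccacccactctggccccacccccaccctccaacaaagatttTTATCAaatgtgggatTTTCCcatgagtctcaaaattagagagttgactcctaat

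The NFAT core matched 3 times in the Il9 window, 4 times in Il13, 5 times in Il4 and 3 times in Il6. The Il9 window held 1 AP-1 match, from base 140 to base 134 before the start, and the Il6 window held another, from base 249 to base 243. A GATA match lay in the Il13 window, from base 81 to base 76 before the start, and in the Il6 window, from base 55 to base 50. STAT letters matched in 0 of these 4 windows. Among all 32851 RefSeq windows of the same length, 55.6% held the NFAT core, 16.6% the GATA, 6.75% the AP-1 and 7.02% the STAT letters. These are letter matches and were not tested as binding sites.

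Csf2 (ENSMUSG00000018916, minus strand of chr11:54247271-54249667), which encodes the granulocyte and macrophage growth factor GM-CSF, was the most abundant of the 9 genes in both IL-33 libraries. It stood at 913 and 891 FPKM under IL-33 alone and at 1819 and 731 FPKM once Ang II was added, rank 47, 50, 22 and 60 among all gene models. The first Ang II library lay above both IL-33 libraries and the second below both, so the groups overlapped. The mean log2 difference was 0.35, with single pairings from -0.32 to 1.03. Gm12223, an antisense gene model with 96 exonic bases in common with Csf2, stood at 1.92 and 1.64 FPKM under IL-33 alone and at 28.8 and 6.32 FPKM once Ang II was added. Strandedness of the libraries is not given, so reads from the shared bases cannot be told apart. Il3 (ENSMUSG00000018914, minus strand of chr11:54265303-54267277), the neighbouring gene of a growth factor for mast cells and basophils, was listed at 0 in all 4 libraries.

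Il2 (ENSMUSG00000027720, minus strand of chr3:37120523-37125959), which encodes a growth factor of T cells and of ILC2s, stood at 14.2 and 13.9 FPKM under IL-33 alone and at 1.01 and 11.9 FPKM once Ang II was added. Both Ang II values were lower, the second only slightly, and single pairings ran from -2.92 to -0.21 on the log2 scale around a mean of -1.57. Il6 (ENSMUSG00000025746, plus strand of chr5:30013114-30019981), which encodes a pyrogenic cytokine that acts on liver, B cells and T cells, stood at 15.4 and 13.4 FPKM under IL-33 alone. In the Ang II libraries it was listed at 0 and at 67.9 FPKM, to either side of the IL-33 values. Only 0.499% of genes tested had a larger gap between the Ang II libraries than Il6, against 4% for Il4, 16.8% for Il13, 27.3% for Il2 and 48.6% for Csf2. Il10 (ENSMUSG00000016529, plus strand of chr1:131019845-131024974), the gene of an anti-inflammatory cytokine, was listed at 0 throughout.

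**Figure D2:**
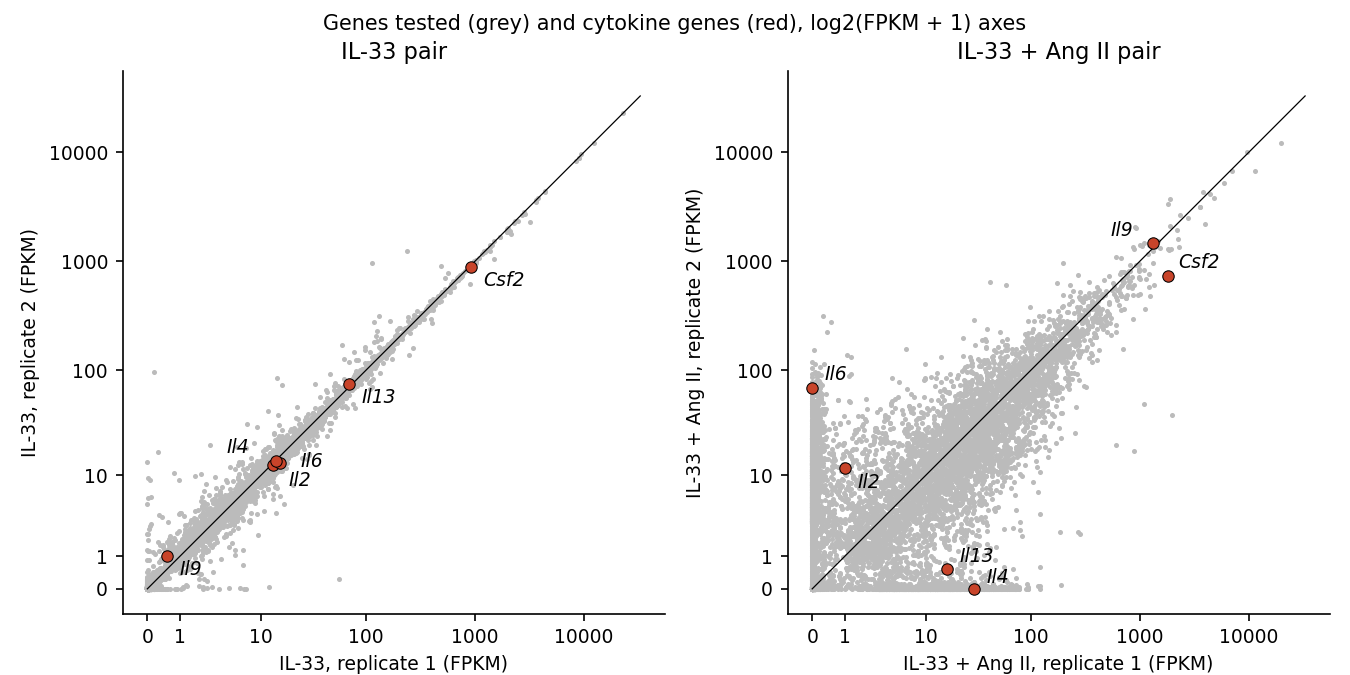
Replicate 2 against replicate 1 of the IL-33 pair (left) and of the IL-33 plus Ang II pair (right), in FPKM on log2(FPKM + 1) axes; grey points are the 9215 genes tested, red points the 6 cytokine genes above 0, and the line marks equal values. With IL-33 all 6 lie near the line, Il9 (0.52 and 1.00 FPKM) the farthest from it. With Ang II Il9 (1.13 times apart) lies nearest to the line, followed by Csf2 (2.49 times apart).

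The direction of 3 genes depended on which Ang II library was taken. With the first library alone, Csf2, Il4 and Il9 lay above both IL-33 libraries and Il13, Il2 and Il6 below. With the second alone, Il6 and Il9 lay above and Csf2, Il13, Il2 and Il4 below. Il9 on the high side and Il13 and Il2 on the low side were shared by both libraries. Their mean log2 differences without the first and without the second Ang II library were 9.73 and 9.55 for Il9, -5.57 and -2.07 for Il13 and -0.22 and -2.91 for Il2. For the 3 genes that changed side they were -3.79 and 1.13 for Il4, 2.16 and -3.94 for Il6 and -0.30 and 1.01 for Csf2.

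The 9 genes summed to 1026 and 1005 FPKM under IL-33 alone and to 3176 and 2295 FPKM once Ang II was added. Csf2 made up 89% and 88.6% of that sum with IL-33 and 57.3% and 31.9% with Ang II. Il9 made up 0.0507% and 0.0995% with IL-33 and 41.2% and 64.6% with Ang II. The share from Il13 was 6.83% and 7.33% with IL-33 and 0.515% and 0.0231% with Ang II. In the first Ang II library Csf2 remained above Il9, and in the second Il9 exceeded it by 2.03 times.

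The genes around the cluster were read for comparison. Il4, Il13, Rad50 and Il5 follow each other on chromosome 11, with the start of Il4 16.0 kb and that of Il5 86.1 kb from the start of Il13. Rad50, a DNA repair gene whose body lies between Il13 and Il5 and holds the locus control region of the cluster, stood at 23.6 and 23.5 FPKM under IL-33 alone. The Ang II libraries had 6.97 and 5.76 FPKM, below both IL-33 values and, unlike Il13 and Il4, at a like level in both. Irf1, an interferon regulatory factor gene 135.3 kb from Il13, stood at 101 and 96.5 FPKM against 111 and 93.4 FPKM, with overlap. Septin8, on the other side of Il4, stood at 5.26 and 5.86 FPKM against 53.3 and 8.03 FPKM. P4ha2, a collagen prolyl hydroxylase gene between the cluster and Csf2, was at 0 under IL-33 alone and measured 31.99 and 12.56 FPKM once Ang II was added. At the Il9 locus, 4 of 5 listed neighbours stayed below 1 FPKM in all libraries, and Fbxl21, an F-box gene 40.2 kb from Il9, stood at 0 and 0.06 FPKM against 1.36 and 18.3 FPKM. Mapkapk2, a kinase gene 78.0 kb from Il10, stood at 11.38 and 11.98 FPKM against 0.05 and 14.97 FPKM, with overlap.

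**Figure D3:**
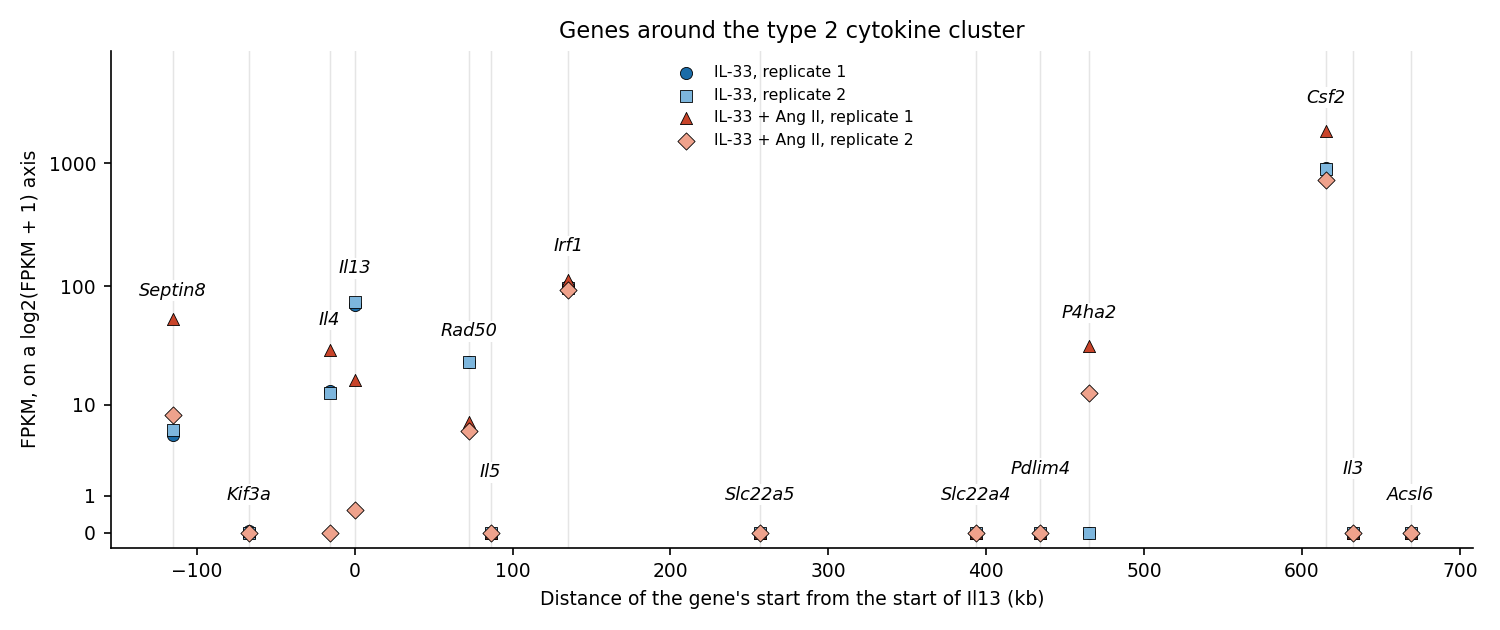
FPKM of genes on chromosome 11 in each library (log2(FPKM + 1) axis) against the distance in kb of the gene's start from the start of Il13. Il13 and Rad50 have both Ang II points below the IL-33 points, Il4 and Csf2 have them on either side, and Il5 and Il3 lie at 0.

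Receptors of these cytokines were read from a list of 16 chains, of which 8 had a mean FPKM of 1 or more. Of the 8, 3 lay above and 2 below both IL-33 values in each Ang II library, beside 24.4% and 33.5% of all genes tested. Of these receptors 0 passed the test (limma, Benjamini-Hochberg over 9215 genes, two-sided, adjusted threshold 0.05). At an unadjusted p under 0.05 the receptor count was also 0. Over all genes tested limma passed 0 (0%) at the adjusted threshold, the smallest adjusted p being 0.174, and at an unadjusted p under 0.05 it gave 2.79% higher and 10.8% lower. This fit has 1 residual degree of freedom, and with the IL-33 libraries counted as 2 samples it passed 1547 genes. Of the 6 tested neighbours of the cytokine genes, 0 passed and 0 had an unadjusted p under 0.05. The median log2 difference of the 8 receptors was 0.47, against 0.01 over all genes tested. Il9r and Csf2rb2 were near 0 under IL-33 alone and entered the test through 1 Ang II library. Their differences had to be positive, so nothing is read from this median.

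Il2ra, the high-affinity chain of the IL-2 receptor, stood at 61.9 and 62.4 FPKM under IL-33 alone and at 128 and 107 FPKM once Ang II was added (log2 difference 0.90, adjusted p = 0.519 by limma). Il2rb (303 and 304 against 316 and 309 FPKM) and the common gamma chain Il2rg (985 and 1010 against 672 and 1077 FPKM) differed little or overlapped. Il2rg is also part of the receptors for IL-4 and IL-9. Il9r, the specific chain of the IL-9 receptor, was listed at 0.02 and 0 FPKM under IL-33 alone, at 13.1 FPKM in the first Ang II library and at 0 in the second. Il4ra, shared by the receptors for IL-4 and IL-13, stood at 32.8 and 33.5 FPKM against 0.15 and 13.8 FPKM (log2 difference -3.05, adjusted p = 0.775 by limma). Il10ra stood at 44.3 and 45.8 FPKM against 7.32 and 17.7 FPKM, and Il10rb at 12.7 and 13.1 FPKM against 23.2 and 50.9 FPKM. The beta chains of the GM-CSF and IL-3 receptors were near 0 except in the second Ang II library, where Csf2rb2 stood at 17.2 FPKM. Il13ra2 was listed at 0 in all libraries, and Csf2ra, Il13ra1, Il5ra and Il6st stayed below 1 FPKM.

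**Figure D4:**
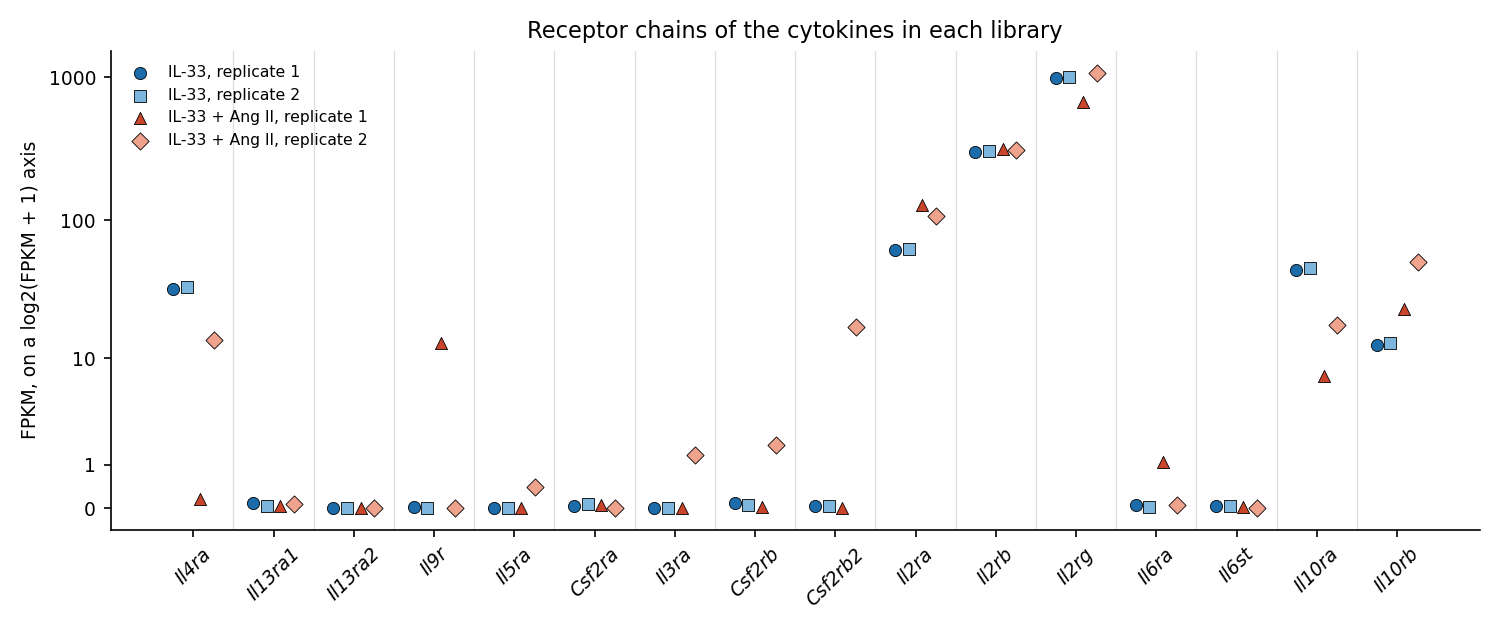
FPKM of 16 receptor chains of the cytokines in each library, on a log2(FPKM + 1) axis; each point is 1 library. Il2ra and Il10rb have both Ang II points above the IL-33 points, Il4ra and Il10ra have them below, and Il9r and Csf2rb2 stand well above 0 in 1 Ang II library only.

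Among 34 transcription factors known to act on cytokine genes of type 2 lymphocytes, 30 had a mean FPKM of 1 or more. Of these, 12 lay higher, 7 lower and 11 overlapped, beside 24.4% higher and 33.5% lower among all genes tested. Their median log2 difference was 0.19, and 0 passed limma at the adjusted threshold. Those with an unadjusted p under 0.05 were 2 higher (Nfkbiz and Maf) and 2 lower (Batf3 and Tcf7), beside 2.79% and 10.8% of all genes. Maf, Batf3 and Tcf7 are named because they had such a p. Each of the 4 stood below 1 FPKM in both libraries of one group and entered the test through the other group alone, so that it had to differ. Gfi1, Prdm1 and Stat5b also stood below 1 FPKM in both IL-33 libraries and entered through Ang II values. Nothing is therefore read from the count of the 4, from the 12 higher and 7 lower, or from the median. Gata3, the master regulator of type 2 cytokine genes, stood at 104 and 108 FPKM under IL-33 alone and at 185 and 130 FPKM once Ang II was added (log2 difference 0.55, adjusted p = 0.775 by limma). Rora, which ILC2s need to develop, overlapped (58.8 and 61.4 against 60.4 and 74.4 FPKM). Bhlhe40, a repressor that promotes cytokine output of T cells, stood at 24.5 and 25.9 FPKM against 88.7 and 187 FPKM. Nfkbiz, which encodes the nuclear inhibitor-like protein IkB-zeta, stood at 0.08 FPKM in both IL-33 libraries and at 52.8 and 91.5 FPKM once Ang II was added. Maf, a direct activator of Il4 in T cells, stood at 0.18 and 0.14 FPKM against 9.81 and 9.93 FPKM.

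Several of these factors differed between the Ang II libraries in the same order as Il4, Il13 and Csf2. Between these libraries 55% of all genes tested lay more than 2-fold apart, and a link of the factors to these cytokine genes was not tested. Batf, an AP-1 family factor, stood at 49.6 and 51.4 FPKM under IL-33 alone and at 193 and 39.9 FPKM once Ang II was added. Nfil3 stood at 166 and 160 FPKM against 320 and 69.6 FPKM, and Cebpb at 23.4 and 26.9 FPKM against 283 and 2.19 FPKM. In each the first Ang II library was the highest of the 4 and the second the lowest, as for Il4 and Csf2. Ikzf3 had the opposite order, with 56.8 and 55.3 FPKM against 25.1 and 95.7 FPKM, as did Il6. Junb was at 703 and 724 FPKM against 1208 and 768 FPKM. Id2, a regulator that all innate lymphoid cells need, overlapped (741 and 746 against 760 and 489 FPKM). Jund, another AP-1 factor, stood at 406 and 417 FPKM against 397 and 203 FPKM, and the NF-kB subunit gene Rela at 82.8 and 86.5 FPKM against 67.4 and 41.3 FPKM.

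Other cytokine and effector genes were read from a list of 29. Of these, 12 were listed at 0 in all libraries, among them Ifng, Il22 and Il21, and 15 had a mean FPKM of 1 or more. Of the 15, 5 lay above and 6 below both IL-33 libraries in each Ang II library, beside 24.4% and 33.5% of all genes tested. The median log2 difference of the 15 was 0.29. Il12a, Il15, Il17a, Il17f and Il18 were at or near 0 under IL-33 alone and entered the test through Ang II values. Their differences had to be positive, so nothing is read from the median or from the counts of 5 and 6. Limma passed 0 at the adjusted threshold, and at an unadjusted p under 0.05 it gave 4 higher (Areg, Osm, Il17a and Il17f) and 1 lower (Tgfb1), beside 2.79% and 10.8% of all genes. Areg, the gene of the epithelial repair factor amphiregulin, measured 7.38 and 7.51 FPKM in the first group and 217 and 344 FPKM in the second. Osm, which encodes the IL-6 family cytokine oncostatin M, stood at 3.32 and 3.73 FPKM under IL-33 alone and at 78.2 and 51.7 FPKM once Ang II was added (log2 difference 3.84, adjusted p = 0.223 by limma). Il17f stood at 0.06 and 0.07 FPKM against 48.2 and 30.4 FPKM. Il17a was at 0 under IL-33 alone and measured 37.9 and 16.6 FPKM once Ang II was added. Il17a and Il17f entered the test through their Ang II values alone, and Tgfb1 through its IL-33 values alone, so that they had to differ. Of the lymphotoxin genes, Ltb stood at 186 and 180 FPKM against 248 and 202 FPKM and Lta at 92.1 and 89.9 FPKM against 21.3 and 41.0 FPKM. The 4 ILC3 markers, of cells known for IL-17, summed to 0 FPKM in both IL-33 libraries and to 0 and 2.15 FPKM once Ang II was added, and Il23r was listed at 0 throughout. Their part in the IL-17 genes was not tested.

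Il1a, Il1b and Tnf, which myeloid cells make in quantity, resembled Il6 in being at or near 0 in the first Ang II library. Il1rn and Il18 were not. Il1b stood at 127 and 122 FPKM under IL-33 alone and at 0.26 and 315 FPKM once Ang II was added. Il1a was at 133 and 132 FPKM against 0.2 and 55.1 FPKM, and Tnf at 60.8 and 63.9 FPKM against 0 and 27.7 FPKM. Il1rn, which encodes the IL-1 receptor antagonist, stood at 25.0 and 22.3 FPKM against 16.0 and 8.64 FPKM, and Il16 at 28.8 and 21.9 FPKM against 11.57 and 7.68 FPKM. Il18 was listed at 0 except in the first Ang II library, where it stood at 35.7 FPKM. Beside these, 8 of 12 macrophage, monocyte and dendritic cell markers had a mean FPKM of 1 or more. The list summed to 2226 to 2260 FPKM under IL-33 alone and 2102 and 1023 FPKM once Ang II was added, and Itgax was at 0. Of the 8, Cd14, Cd68, Lyz2 and Adgre1 lay below both IL-33 values in each Ang II library, Marco, Fcgr3 and Ccr2 lay above, and Chil3 overlapped. Cd14 stood at 152 FPKM in both IL-33 libraries and at 0.51 and 18.2 FPKM once Ang II was added. Marco was listed at 0 under IL-33 alone and measured 191 and 23.2 FPKM in the Ang II pair, and Fcgr3 stood at 0.43 and 0.46 FPKM against 38.7 and 55.5 FPKM. The part of these cells in the level of Il6 was not tested. In bulk RNA, fewer cells of a type and less RNA per cell cannot be told apart.

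Markers of mast cells and basophils, which also make IL-4, IL-13 and IL-6, summed to 8.33 and 8.99 FPKM under IL-33 alone and to 49.0 and 36.3 FPKM once Ang II was added. Of 13 such markers 4 had a mean FPKM of 1 or more. Hdc, which encodes the histamine-forming enzyme, stood at 0.14 and 0.06 FPKM against 28.4 and 26.0 FPKM, and Cd200r3 at 0.02 and 0 against 10.3 and 7.8 FPKM. Kit, the receptor of stem cell factor, overlapped with 6.17 and 5.75 FPKM against 6.26 and 0.01 FPKM, and so did Prss34, a basophil protease gene, with 1.66 and 2.43 FPKM against 3.38 and 2.1 FPKM. Hdc and Cd200r3 entered the test through their Ang II values alone and had to be higher. Of the 4 markers only Hdc and Cd200r3 lay higher in both Ang II libraries, so nothing is read from the sum of the list. Fcer1a, Ms4a2, Cma1, Mcpt4 and Tpsab1 were listed at 0 in all 4 libraries, and Cpa3, Gata2, Mcpt8 and Tpsb2 stayed below 1 FPKM. Hdc and Il9 lay higher in both Ang II libraries, as did 24.4% of all genes tested, and a link between Hdc and Il9 was not tested. T cells can also transcribe Il2, Il4 and Il9. Of 12 T cell markers 10 had a mean FPKM of 1 or more, and these 10 were lower in both Ang II libraries, beside 33.5% of all genes tested. Of these 10, Cd247, Cd3e, Cd4, Cd5 and Cd6 stood below 1 FPKM in both Ang II libraries. They entered the test through their IL-33 values alone and had to be lower, so nothing is read from the count of 10. The T cell list summed to 1289 to 1294 FPKM under IL-33 alone and 926 and 456 FPKM once Ang II was added, and Cd8a and Cd8b1 stayed below 1 FPKM. Its largest values under IL-33 alone were those of Trbc2 (710 and 717 FPKM) and Trbc1 (314 and 306 FPKM). Both are constant region genes of the T cell receptor, and the sum does not measure the number of T cells. Red blood cell markers summed to 24943 to 25146 FPKM against 3831 and 1591 FPKM. The part of these cells in the cytokine levels was not tested.

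The genes nearest to each cytokine gene in level over the 4 libraries, by Euclidean distance in log2(FPKM + 1), were found for the 6 genes with a mean FPKM of 5 or more in a group. Gal lay closest to Il9, at a distance of 0.966, followed at a much greater distance by Areg (4.64) and Spp1 (4.72). Gal stood at 0.23 and 0.25 FPKM under IL-33 alone and at 1313 and 967 FPKM once Ang II was added. Il4 had closer neighbours in Atp6v1a (0.138), Gpaa1 (0.169) and Ptdss1 (0.215), Il6 in Arhgap9 (0.147), Vps16 (0.529) and Selenoh (0.578), and Il2 in Dtx3l (0.155), Ndufs1 (0.348) and Vsir (0.501). Il13 was nearest to Stmn1 (0.517), Cybc1 (0.698) and Cd3d (0.841), and Csf2 to Srgn (0.527), Junb (0.764) and Rplp1 (0.901). Atp6v1a, which encodes a subunit of the vacuolar proton pump, stood at 12.3 and 12.2 FPKM against 27.6 and 0.03 FPKM, in the same order as Il4. Arhgap9 stood at 15.7 and 14.5 FPKM against 0.05 and 65.1 FPKM, in the order of Il6.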

How the data were processed

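The authors deposited FPKM per gene and library with 2 decimals, per the file headers. Per the labels' protocols, cDNA of 500 cells was amplified by PCR, and no molecular identifiers are named, so copies cannot be removed. The submitters' processing notes name HISAT, StringTie, edgeR and mm10, without versions or roles. Columns were matched to samples by name. Coordinates come from GENCODE M21 (GRCm38), matched by identifier for 55141 of 55401 gene models.

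FPKM are not counts, so genes averaging 1 FPKM or more (9215) were tested on log2(FPKM + 1) with limma 3.58.1 in R 4.3.3 (trend, two-sided, Benjamini-Hochberg, 0.05), with the averaged IL-33 libraries as 1 sample, which is assumed to vary like the Ang II libraries. The labels name no separate cultures or mice. A p-value therefore covers only library spread, which may be technical. Scripts were tested on simulated data.

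The members and lists were chosen with earlier results of these data known. Named are all 9 members; from each list up to 12 genes averaging 5 FPKM or more in either group, largest first; and the 3 nearest genes of each member (no Gm or Rik models). Outside this rule, receptors, cytokines and markers at or near 0 were named as such, and marker genes were named to show both directions. Maf, Batf3, Tcf7, Gfi1, Prdm1, Stat5b, Tgfb1, Il12a, Il15, Prss34, Cd247, Cd3e, Cd4, Cd5 and Cd6 were named after their values were seen. 2 genes listed as neighbours of Il6 lay 6169 and 5982 kb away and were left out of the neighbour counts. The marker sum without Areg was added after the data were seen. Alternatives were the pseudocount, filters, scaling, a replicate block, both IL-33 libraries as replicates, and leaving out each library.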

Additional observations from a re-analysis of the deposited data

How the results depend on the processing

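Taking the IL-33 libraries as 2 replicates, limma passed 1547 genes instead of 0. With a replicate block in that fit it passed 0 genes. Deviations of same-numbered libraries correlated at -0.019 over 9215 genes. At the estimated depth the IL-33 libraries differed by little more than counting noise. The correlation therefore cannot show whether the replicate numbers pair the libraries. All other settings of the test gave 0. Without either Ang II library the test has no residual degrees of freedom and was not run.

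The log2 difference of Il9 was 10.72 with a pseudocount of 0.1 and 7.93 with 5, and 9.45 to 9.84 without single libraries. Counts outside both IL-33 libraries were 812 higher and 1594 lower with a gap of at least 2-fold, where Il9 and Il13 remained of the 9 genes (1 lower) and Il2 did not. Among genes averaging 5 FPKM or more, 1927 were lower. Leaving out single libraries gave 2440 to 4315 genes higher, and 1 to 3 members higher and 2 to 4 lower. For the other 5 cytokine genes above 0, all 40 alternative differences lay within 1 SD of the Ang II libraries. With 2 such libraries, leaving out either one always moves a difference by less than that SD. For those settings the count therefore cannot show stability. Il4, Il6 and Csf2 changed sign without 1 Ang II library (values in the results above), and the cause was not tested. Scaling moved the median of all genes by at most -0.051. The unknown depth limits every listed 0.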
